A study of Mus musculus with 16 samples.

Results

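The circadian clock genes Clock, Per1, Per2, Per3, Cry1, Cry2, Nr1d1, Nr1d2, Dbp and Tef, were followed in subcutaneous and visceral adipose tissue of lean and obese mice. They were found by matching the RefSeq transcript identifier of each row of the count table to the symbols of these 10 genes, which gave 54 of 130343 rows, and the rows of a gene were summed. Male C57BL/6J mice began their diets at 10 weeks of age and stayed on them for 12 to 14 months. Obese mice ate a high-fat diet with 42% of its energy from fat and 0.2% cholesterol, and lean mice ate a normal laboratory diet. RNA was sequenced from inguinal subcutaneous tissue (SAT, both sides combined) and mesenteric visceral tissue (VAT) of 4 mice per diet, with 1 library per tissue and mouse and 16 libraries in all. SAT and VAT libraries with the same diet and number were taken as coming from 1 mouse. Nothing in the sources used here ties a lean and an obese mouse of the same number. The time of day at which tissue was taken is not given in the sources used here.

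The mammalian clock is a feedback loop of transcription. CLOCK pairs with BMAL1 and binds E-boxes in target genes. Its targets include the PER and CRY proteins, which return to repress the pair, and Nr1d1 and Nr1d2, which encode the repressors REV-ERB alpha and REV-ERB beta of the Bmal1 gene. DBP and TEF are activators of the PAR bZIP family that bind D-boxes and carry the rhythm to output genes. The loop runs in most cells, adipocytes included, and the RNA of many of these genes rises and falls over each day, so that a level depends on when tissue is taken. In whole tissue, fewer cells that express a gene and less RNA per cell cannot be told apart.

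The E-box and the D-box are shown here in members whose promoters hold their letters, because these are the sites through which the loop is wired. RefSeq promoters (build GRCm38.p6, 250 bases before to 50 bases after a transcription start) were found for 9 of the 10 members, 13 promoters in all, and Per2 was not among them. The letters CACGTG (E-box), CACGTT (a variant called the E-prime box), TTATGTAA or TTACGTAA (D-box), TAGGTCA (the element shared by REV-ERB and ROR receptors) and TGACGTCA (the cAMP response element) were searched on both strands. At least 1 of them was present in 6 members. Each line below gives a stretch around a match, read in the direction of the gene, with the match in capitals and AACGTG being CACGTT on the other strand. The first stretch of Cry1 and the second overlap.
Per1 E-box, chr11:69098767-69098804, plus strand: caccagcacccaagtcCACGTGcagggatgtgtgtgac
Tef E-box, chr15:81802530-81802567, plus strand: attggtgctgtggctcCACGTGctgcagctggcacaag
Tef E-box at a second start, chr15:81811260-81811297, plus strand: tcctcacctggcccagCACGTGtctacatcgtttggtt
Cry1 E-box, chr10:85185093-85185130, minus strand: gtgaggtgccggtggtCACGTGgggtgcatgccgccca
Cry1 E-prime box, chr10:85185112-85185149, minus strand: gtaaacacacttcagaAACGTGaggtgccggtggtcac
Cry2 E-prime box, chr2:92434214-92434251, minus strand: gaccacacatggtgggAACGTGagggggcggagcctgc
Nr1d1 E-prime box, chr11:98775384-98775421, minus strand: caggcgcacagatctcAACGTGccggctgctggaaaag
Per3 D-box, chr4:151044847-151044886, minus strand: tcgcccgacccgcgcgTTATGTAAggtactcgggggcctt
Per3 D-box, nearer to the start, chr4:151044800-151044839, minus strand: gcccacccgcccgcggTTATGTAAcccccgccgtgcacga
The E-box lay in 4 of the 13 promoters, from 3 members, and in 7.15% of all 32851 promoters. The E-prime box lay in 3 of the 13, from 3 members, and in 4.68% of all promoters, and the D-box in 1 of the 13, that of Per3, and in 1.06% of all promoters. The REV-ERB/ROR element and the cAMP response element, in 2.61% and 1.79% of all promoters, were in none of the members' windows. The windows of Dbp, Clock and Nr1d2 held none of these letters. A match is a description of the sequence and not a measured site, and no binding was measured here.

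Only 13 of the 54 rows held any count, and 41 (75.9%) were at 0 in every library, against 66.7% of all rows. The members took 1545 of 163373380 counts, and Dbp took 75.3% of these 1545. Dbp and Cry2 passed the filter for testing (a CPM, the count scaled to a common library total, above 1 in at least 3 of the 16 libraries), and the other 8 members did not. Total counts ran from 1256082 (VAT of lean mouse 1) to 16614407 (SAT of obese mouse 3), so that 3 counts, the most that a count of 0 allows, stood for 0.181 to 2.39 CPM. These limits cover counting error only. Low counts were not read as low expression: reads that several transcripts share may not be counted, how such reads were treated is not stated, and Pecam1, a marker of endothelium, was at 0 in all libraries. The tissue markers were present, with the summed CPM of 6 adipocyte genes between 14958 and 57655. Nearly all of this sum was Fabp4, Lep and Adipoq (3492629, 1442759 and 852715 counts over the 16 libraries), against at most 15197 for another of the 6.

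**Figure D1:**
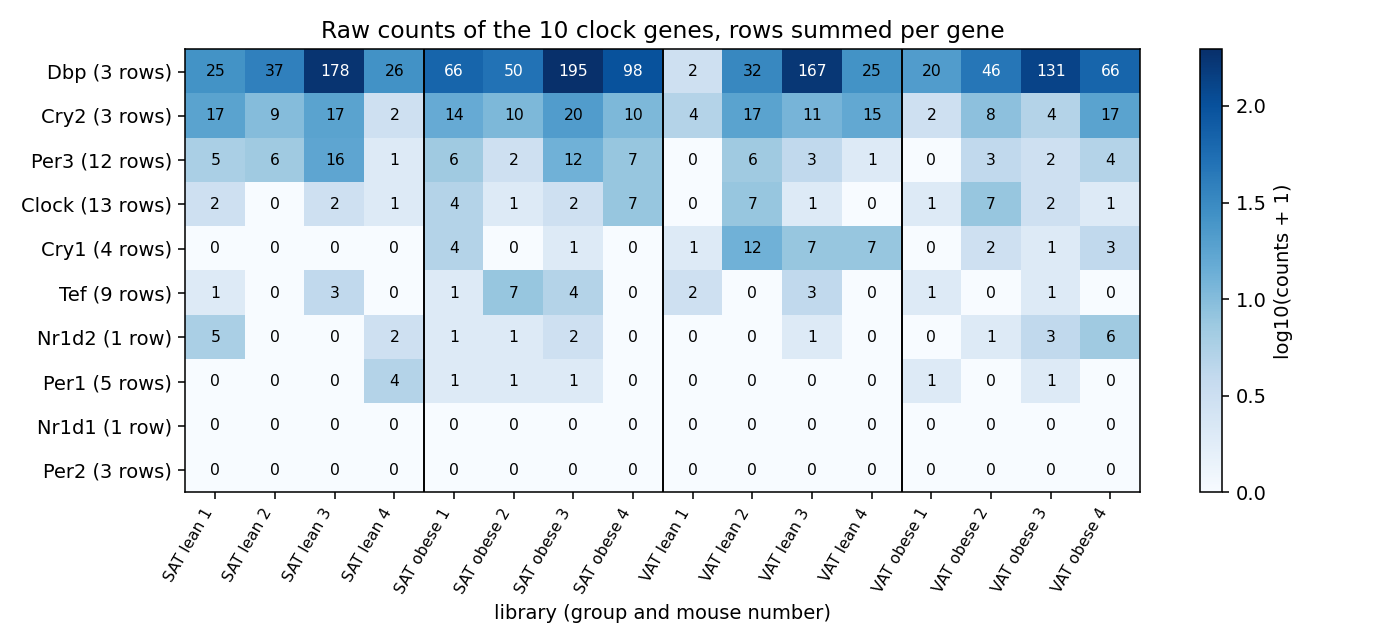
Raw counts of the 10 clock genes (lines) in each of the 16 libraries (columns, by group and mouse number), with rows summed per gene and colour on a log10 scale of counts plus 1. Dbp had counts in every library, from 2 to 195, Cry2 from 2 to 20, and Per2 and Nr1d1 were at 0 throughout.

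Clock, a partner in the activating pair, had 38 counts, all on 1 of its 13 rows (XM_030254101), and no library held more than 7. Its pooled level was 0.143 CPM in SAT of lean mice (95% Poisson interval 0.0464 to 0.334), 0.238 in SAT of obese mice, 0.230 (0.0994 to 0.454) in VAT of lean mice and 0.315 (0.157 to 0.564) in VAT of obese mice. The intervals of the 4 groups overlap. Of its partners, Bmal1 passed the filter and Npas2 did not, with counts of 0 to 2 per library.

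Of the PER repressors, Per3 had 74 counts, all on 1 of 12 rows, Per1 had 9 on 1 of 5 rows, and Per2 had 0 on 3 rows. In SAT of lean mice Per3 had counts of 5, 6, 16 and 1 in mice 1 to 4, and in SAT of obese mice 6, 2, 12 and 7. In VAT it had 0, 6, 3 and 1 in lean mice and 0, 3, 2 and 4 in obese mice. Mouse 3 of each diet was the highest in SAT, and neither was the highest in VAT. The pooled level of Per3 in SAT of lean mice was 0.800 CPM (95% Poisson interval 0.532 to 1.16), and in VAT of the same mice 0.288 CPM (0.138 to 0.529), intervals that do not overlap but cover counting error only. Without a filter on low counts, edgeR's quasi-likelihood test of VAT against SAT in lean mice gave Per3 a log2 fold change of -1.60 ± 0.84 (SE) and an adjusted p of 0.429. The 0 counts of Per2 allow up to 0.0184 CPM over all 16 libraries.

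Of the CRY repressors, Cry1 had 38 counts, all on 1 of 4 rows (XM_011243348). In lean mice it had no count in any SAT library, against 1, 12, 7 and 7 counts in VAT, which stand for 0.666, 0.715, 0.754 and 0.768 CPM. In obese mice it had 4, 0, 1 and 0 counts in SAT and 0, 2, 1 and 3 in VAT. The 4 lean VAT libraries had higher CPM than every other library, as for 0.293% of the 31421 features with a count, although 1 of them rests on a single count and the 0 of obese mouse 1 in VAT allows up to 1.33 CPM. The pooled level of Cry1 was 0.777 CPM in lean VAT (Poisson interval 0.512 to 1.13) and 0 in lean SAT (0 to 0.105). These intervals do not overlap but cover counting error only. Against the limit of 3 counts over the lean SAT libraries, 0.777 CPM was 9.06-fold higher. This ratio leaves out the counting error of the VAT level and is not a lower bound. Cry1 failed the filter and was tested by edgeR without it only. There it was called higher in VAT than in SAT of lean mice (adjusted p = 0.00861), as were 3.59% of the 31421 features. It was the single one of 8 members called in either direction, as were 5.79% of features. That fit took each gene's spread from the trend over all genes, so this p does not measure how Cry1 varied between mice. Cry1 was not called in VAT of obese against lean mice (adjusted p = 0.192), where 5.03% of features were, or in the comparison of the diet responses (adjusted p = 0.604), where 1.33% were. Between SAT and VAT of lean mice the summed levels of cell type markers differed as well, from 0.166 to 1.41 CPM in SAT and 238.1 to 578.5 CPM in VAT for 4 mesothelium genes, and from 4.01 to 7.64 and 29.3 to 230.4 CPM for 4 B cell genes. For 6 macrophage genes they were 358 to 490 and 640 to 830 CPM, and for 6 adipocyte genes 40487 to 57655 and 21521 to 34259 CPM. The part of these cells in the tissue differences was not tested.

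Of the nuclear receptors, Nr1d2 had 22 counts on its single row and at most 6 in a library, and Nr1d1 had 0 on its single row. Nr1d1 (GRCm39 chr11:98658752-98666188, minus strand) shares 1694 exonic bases, 52.3% of its own, with Thra on the opposite strand, and the strand setting of the counting is not stated, so its 0 was not read as absence. Tef had 23 counts on 3 of its 9 rows and at most 7 in a library.

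Cry2 had 177 counts on 2 of 3 rows. Its level, in CPM scaled by TMM (trimmed mean of M values) factors, was 1.41, 1.26, 1.62 and 0.426 in SAT of lean mice 1 to 4 and 1.07, 1.06, 1.37 and 0.775 in SAT of obese mice. In VAT it was 2.66, 1.01, 1.18 and 1.65 in lean mice and 0.762, 0.645, 0.373 and 1.41 in obese mice, and the 2.66 rests on 4 counts. The groups overlapped in both tissues, and mouse 3 of each diet was the highest in SAT but not in VAT. Their means were 1.18 ± 0.53 and 1.07 ± 0.24 CPM in SAT and 1.63 ± 0.74 and 0.798 ± 0.440 CPM in VAT (lean and obese, SD, n = 4 each). No difference between diets was called in edgeR's quasi-likelihood test: the log2 fold change of obese against lean was -0.22 ± 0.42 (SE, 95% interval -1.10 to 0.66, adjusted p = 0.799) in SAT and -0.77 ± 0.47 (-1.74 to 0.21, adjusted p = 0.341) in VAT.

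Dbp carried the counts of the family, 1164 in all, on 3 rows: 819 on XM_006540597, 177 on NM_016974 and 168 on XM_006540596. The gene lies at GRCm39 chr7:45354512-45359627 on the plus strand, and 539 of its exonic bases (15.5%) are shared with Sphk2 on the opposite strand. In SAT of lean mice 1 to 4 its level was 2.08, 5.20, 17.0 and 5.54 CPM, and in SAT of obese mice 5.03, 5.30, 13.3 and 7.59 CPM. In VAT it was 1.33, 1.91, 18.0 and 2.74 CPM in lean mice and 7.62, 3.71, 12.2 and 5.48 CPM in obese mice, and the 1.33 rests on 2 counts. Mouse 3 was the highest of its diet in both tissues, among lean and among obese mice alike, and lean mouse 1 was the lowest of its diet in both, while in obese mice the lowest was mouse 1 in SAT and mouse 2 in VAT.

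**Figure D2:**
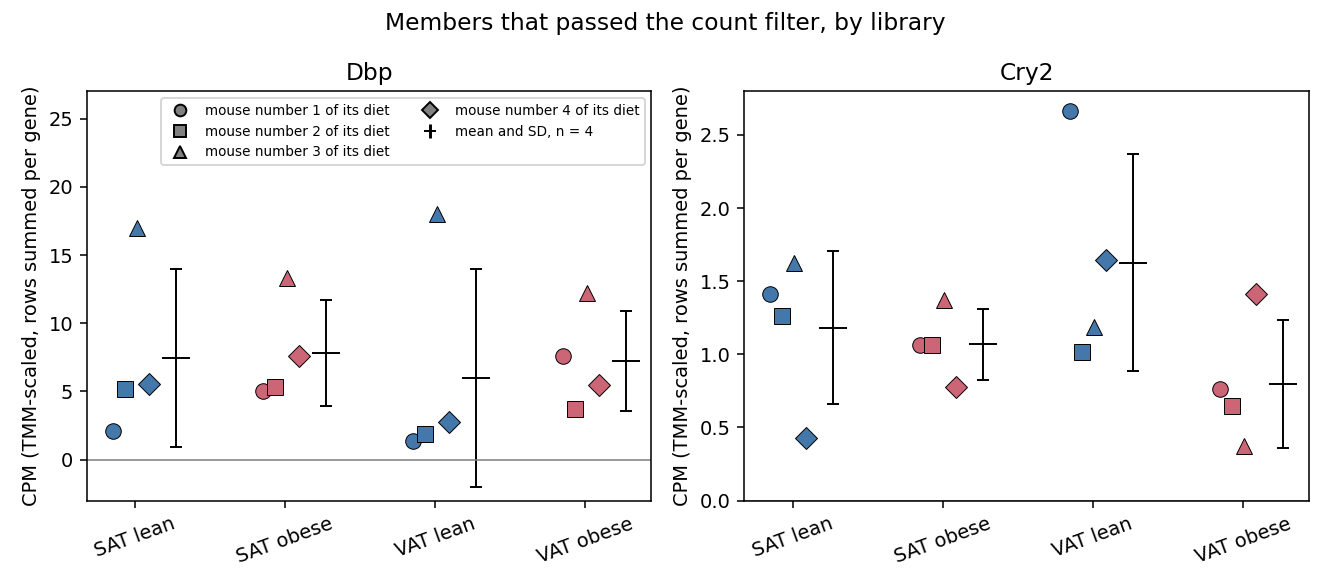
Level of Dbp (left) and Cry2 (right) in CPM scaled by TMM factors, by group, with 1 point per library (blue for lean, red for obese, shape for the mouse number within its diet) and bars for the mean and SD of 4 libraries. Mouse 3 of each diet, the triangle, has the highest Dbp in each group, whereas for Cry2 it is the highest in both SAT groups and in neither VAT group.

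The diet comparison asks whether clock genes shift in long-term obesity. Mean Dbp was 7.46 ± 6.56 CPM in SAT of lean mice and 7.82 ± 3.86 in SAT of obese mice, and 5.99 ± 8.02 and 7.26 ± 3.68 CPM in VAT (SD, n = 4 each). The log2 fold change of obese against lean was 0.06 ± 0.60 (SE, 95% interval -1.19 to 1.31) in SAT and 0.12 ± 0.64 (-1.20 to 1.45) in VAT, with adjusted p of 0.974 and 0.941 in edgeR's quasi-likelihood test over 12186 genes. The intervals leave room for changes of more than 1 log2 unit either way, so that these data do not show Dbp to be alike in the diets. Neither of the 2 tested members was called in SAT or in VAT by edgeR, DESeq2 or limma voom, nor did either reach an unadjusted p under 0.05, where 11.6% and 12.2% of all tested genes were called by edgeR. The VAT value rests on lean mouse 3: without it Dbp was called, at a log2 fold change of 1.75 ± 0.48 (SE, adjusted p = 0.0261), whereas without mouse 3 of both diets it was 1.31 ± 0.41 and was not called (adjusted p = 0.0629). In SAT Dbp was not called without any 1 mouse, with the log2 fold change between -0.34 and 0.95.

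The diet responses of the tissues were compared with the mouse as a block. For Dbp the VAT response minus the SAT response was 0.48 ± 0.37 (SE, 95% interval -0.30 to 1.26, adjusted p = 0.604) on the log2 scale, and for Cry2 -0.76 ± 0.75 (-2.33 to 0.80, adjusted p = 0.692), so that neither of the 2 tested members was called (0 at an unadjusted p under 0.05, 0 by DESeq2 and by limma voom) where 2.47% of all genes were. Between tissues of the same mice, Dbp was lower in VAT in 3 of 4 lean and 3 of 4 obese mice, with a log2 fold change of VAT against SAT of -0.65 ± 0.28 (SE, 95% interval -1.24 to -0.06, adjusted p = 0.132) in lean mice and -0.17 ± 0.24 (-0.68 to 0.34, adjusted p = 0.636) in obese mice. Neither difference was called by edgeR, DESeq2 or limma voom, where 15.9% of all genes were called in lean and 31.4% in obese mice, and the first had an unadjusted p of 0.0322. Without lean mouse 3 the lean difference was -1.18 ± 0.35 (SE) and was called (adjusted p = 0.0323), and without mouse 3 of both diets it was -1.17 ± 0.38 (adjusted p = 0.0589). For Cry2 the log2 fold change of VAT against SAT was 0.30 ± 0.53 (SE) in lean mice (adjusted p = 0.769) and -0.46 ± 0.53 in obese mice (adjusted p = 0.551).

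The largest differences in Dbp were between mice of the same diet. Among tested genes without ties, the mouse with the highest level was the same in SAT and VAT for 31.2% of genes in lean mice and 27.1% in obese mice, and in both diets for 8.25%. The mouse with the lowest level was the same for 30.8% of genes in lean and 27.4% in obese mice. Of the members without a tie for the highest level, Dbp was the single member with such agreement, among 6 in lean and 8 in obese mice. A test for differences between mice within a diet, added after these values had been seen, used the SAT and VAT library of a mouse as its 2 samples. In it edgeR called 128 of 12186 genes (1.05%), and Dbp ranked 2 by p, behind Bhlhe40 (F = 20.6, adjusted p = 0.000687). Cry2 was not called (adjusted p = 0.989). The result for Dbp rests on the mice numbered 3: the adjusted p was 0.0594 without lean mouse 3, and 0.708 without mouse 3 of both diets, while it was called without any other 1 mouse. Since this test followed from the values, its p for Dbp is a description of these mice.

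Of the rows of Dbp, XM_006540597 was highest in mouse 3 in all 4 groups, with 13.4 CPM against at most 4.36 in the other lean SAT libraries, 10.3 against 5.34 in obese SAT, 13.2 against 1.76 in lean VAT and 7.18 against 3.73 in obese VAT. XM_006540596 was also highest in mouse 3 in all 4 groups, at 1.77 to 2.37 CPM. NM_016974 was highest in mouse 3 of the lean mice in both tissues, but in obese mouse 2 in SAT and in obese mouse 1 in VAT. Tested as rows, XM_006540597 was called between mice by edgeR (adjusted p = 0.000359), and NM_016974 (adjusted p = 0.282, unadjusted 0.0119) and XM_006540596 (adjusted p = 0.337, unadjusted 0.0190) were not, and no test of a difference between the rows was run. Sphk2, whose exons overlap Dbp, lay between 1.66 and 4.30 CPM as deposited, and its values in mouse 3 of each diet, 2.96 and 3.16 in lean and 1.75 and 2.69 in obese mice, lay inside the range of the other mice of the same group in obese mice and below it in lean mice.

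Other measures of the mice numbered 3 were read beside Dbp. Total counts of lean mouse 3 lay inside the range of its group in both tissues, and those of obese mouse 3 were the highest of its group in SAT and inside the range in VAT. Of 11 lists of cell type markers, the summed level in mouse 3 lay inside the range of the other mice of its group for 5 lists in lean SAT, 5 in obese SAT, 5 in lean VAT and 6 in obese VAT. The summed level of 6 adipocyte genes (all above 0, but nearly all Fabp4, Lep and Adipoq) was highest in mouse 3 in lean SAT (57655 CPM against at most 49507), lean VAT (34259 against 31145) and obese VAT (25201 against 23439), and inside the range in obese SAT. The summed level of 6 macrophage genes was lowest in mouse 3 in those same 3 groups, at 358 CPM against at least 434 in lean SAT, 640 against 671 in lean VAT and 1344 against 1472 in obese VAT, and highest in obese SAT, at 851 CPM against at most 792. The 4 B cell genes followed the same order, lowest in mouse 3 in lean SAT (4.01 CPM), lean VAT (29.3) and obese VAT (172.3) and highest in obese SAT (8.07). The 4 mesothelium genes were lowest in mouse 3 in VAT of both diets (238.1 and 285.4 CPM), and the 4 T cell genes in lean VAT (18.4 CPM). Genes of intestinal epithelium were lowest in mouse 3 in lean SAT and lean VAT and highest in obese SAT. Those of endothelium were lowest in lean SAT and highest in obese VAT. Those of lipid-associated macrophages were highest in lean SAT and lowest in obese SAT, where exocrine pancreas and keratinocyte genes were also lowest. The part of cell composition in the Dbp values was not tested.

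The gene with the smallest p in the test between mice was Bhlhe40, which encodes DEC1, a repressor that competes with CLOCK and BMAL1 at E-boxes. It lies outside the rule for named genes and was chosen after its values were seen. Its level was 73.9, 48.8, 226.9 and 72.7 CPM in SAT of lean mice 1 to 4 and 65.3, 55.5, 370.2 and 62.5 CPM in their VAT. In obese mice it was 116.6, 229.3, 141.0 and 244.5 CPM in SAT and 91.8, 90.3, 144.8 and 121.7 CPM in VAT. Lean mouse 3 stood above the other lean mice in both tissues, whereas obese mouse 3 was highest in VAT and lay below obese mice 2 and 4 in SAT. edgeR gave an adjusted p of 0.000235 between mice, which became 0.606 without lean mouse 3 and 0.403 without mouse 3 of both diets. In SAT its log2 fold change of obese against lean was 0.78 ± 0.49 (SE, adjusted p = 0.336), and without lean mouse 3 it was called at 1.49 ± 0.23 (adjusted p = 0.000397). It was also called with the replicate block by number (1.14, adjusted p = 0.0476) and without the filter on low counts (0.82 ± 0.15, adjusted p = 5.52e-06). This last fit took each gene's spread from the trend over all genes, so 0.15 does not measure the spread between these mice. In the same SAT libraries the summed level of 6 macrophage genes was 358 to 490 CPM in lean and 646 to 851 CPM in obese mice (2 called higher). That of 6 adipocyte genes was 40487 to 57655 and 36435 to 52137 CPM (0 called). For 5 genes of lipid-associated macrophages it was 44692 to 48020 and 34284 to 37716 CPM (1 called lower), nearly all of it Lpl. For 5 exocrine pancreas genes it was 71.3 to 144.3 and 162.1 to 209.0 CPM (1 higher). Nearly all of that sum was Cela1, with 17804 counts over the 16 libraries against at most 97 for another of the 5. The part of cell composition in the SAT values of Bhlhe40, Wee1 and Gsk3b was not tested. In VAT the value was -0.32 ± 0.50 (SE, adjusted p = 0.758), and without lean mouse 3 it turned to 0.93 ± 0.23 and was called (adjusted p = 0.0160). Without mouse 3 of both diets it was called in both tissues, at 1.59 ± 0.23 (adjusted p = 0.000438) in SAT and 0.78 ± 0.23 (adjusted p = 0.0486) in VAT.

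**Figure D3:**
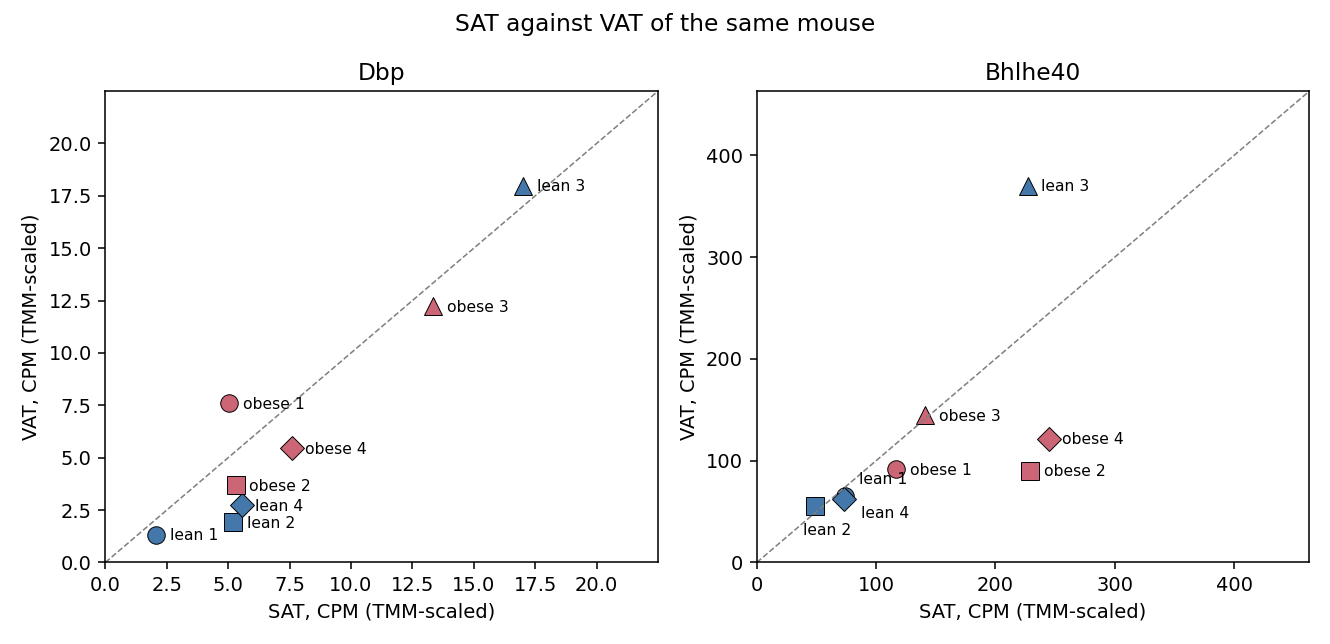
Level in VAT against level in SAT of the same mouse for Dbp (left) and Bhlhe40 (right), in CPM scaled by TMM factors, with 1 point per mouse (blue for lean, red for obese, shape for the number) and a dashed line of equal levels. Lean mouse 3 is at the upper right for Dbp (17.0 and 18.0 CPM), followed by obese mouse 3 (13.3 and 12.2 CPM), and lean mouse 3 has the highest VAT level of Bhlhe40 (370.2 CPM).

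Bmal1, the partner of CLOCK, ran the other way in lean mice. In SAT of lean mice 1 to 4 it was 1.41, 0.562, 0.382 and 1.07 CPM and in VAT 2.66, 1.31, 0.215 and 1.54 CPM, so that lean mouse 3 was the lowest in both tissues and lean mouse 1 the highest. In obese mice it was 0.457, 0.954, 0.342 and 0.620 CPM in SAT, lowest in mouse 3, and 1.14, 0.484, 0.560 and 0.498 CPM in VAT. These values rest on 2 to 22 counts per library, and edgeR did not call Bmal1 between mice (adjusted p = 0.705). Its log2 fold change of obese against lean was -0.57 ± 0.57 (SE, adjusted p = 0.583) in SAT and -1.02 ± 0.60 (adjusted p = 0.317) in VAT.

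Genes with a pattern like that of Dbp were ranked by Pearson's r of log2 CPM, taken as the deviation from the mean of each group, over 16 libraries from 8 mice, among 5501 other genes with a mean of at least 5 CPM. The libraries share mice and the mice numbered 3 weigh heavily, so r is a description. The highest were XR_004938413 (r = 0.94) and XM_036159315 (r = 0.93), rows on chromosomes 14 and 15 whose identifiers had no symbol in the table used here. XR_004938413 had 37.4, 32.8, 51.8 and 37.1 CPM in mouse 3 of SAT lean, SAT obese, VAT lean and VAT obese, and at most 23.7 in the other SAT and 26.9 in the other VAT libraries. XM_036159315 had 43.9, 36.5, 53.6 and 26.8 CPM in the same 4 libraries and at most 23.4 in all the others. Nr1d2 and Tef also lie on chromosomes 14 and 15, which hold 1104 and 869 rows without a symbol, and whether any of these belongs to a member was not determined.

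The other 8 of the 10 highest were 1 further row without a symbol, in 5th place (0.84), and Dtx3l (r = 0.86, a ubiquitin ligase), Snx33 (0.85, a sorting nexin), Adrb1 (0.82, the beta-1 adrenergic receptor), Lonrf1 (0.82), Tst (0.82, the mitochondrial enzyme rhodanese), Por (0.82, the reductase that feeds electrons to cytochrome P450 enzymes) and Eif2ak2 (0.82, the kinase PKR). The most unlike were Spock2 (-0.86), A730046J19Rik (-0.84), Adamts4 (-0.84), Nxn (-0.83) and 1 row without a symbol. Bhlhe40 was 15th (0.78). Cry2 and Bmal1 fell under the limit of 5 CPM and had no rank, with r of -0.19 and -0.79. The order is not firm, since 3 of the 10 highest were still among the 10 highest without lean mouse 3, and 5 without obese mouse 3.

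The wider pathway was read from 4 lists, partners of the loop (11 genes), kinases and ubiquitin ligases that set the life of PER and CRY (10), cofactors (12) and rhythmic outputs (7). They hold 37 genes besides the members, of which 19 were tested. In SAT, 0 of the 19 were called by diet in edgeR and 3 had an unadjusted p under 0.05, where 6.35% of all genes rose and 5.25% fell. DESeq2 and limma voom called 1 each, and not the same gene: DESeq2 called Gsk3b and limma voom called Nampt. In edgeR Nampt had a log2 fold change of -0.31 ± 0.11 (SE, adjusted p = 0.0703) in SAT. In VAT 1 rose and 1 fell, where 6.88% and 5.28% of all genes did. The median log2 fold change of the 19 was 0.05 in SAT and -0.22 in VAT, beside 0.00 and -0.02 over all tested genes. No loop partner was called in either tissue by edgeR with all mice, the filter and no block by number, by DESeq2 or by limma voom, and Bhlhe40 was called in the other edgeR fits given above.

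Wee1, an output of the clock that encodes a kinase holding back mitosis, rose in VAT. Its level in lean mice 1 to 4 was 2.66, 1.43, 2.48 and 2.52 CPM and in obese mice 4.95, 8.55, 4.10 and 6.80 CPM, without overlap, as for 7.98% of all genes in this direction. The log2 fold change was 1.54 ± 0.36 (SE, edgeR adjusted p = 0.00649), and it was called without any 1 mouse. In SAT it was 0.87 ± 0.34 (SE, adjusted p = 0.104) and was called without lean mouse 1 (adjusted p = 0.0435), and no difference between the responses of the tissues was called (0.37 ± 0.51, adjusted p = 0.791). Ncor1, the corepressor that REV-ERB recruits together with HDAC3, fell in VAT, from 36.6, 35.5, 38.0 and 28.6 CPM in lean to 17.1, 22.7, 26.8 and 24.1 CPM in obese mice, without overlap, as for 6.28% of all genes. Its log2 fold change was -0.58 ± 0.17 (SE, adjusted p = 0.0285), and the call was lost without lean mouse 2, lean mouse 3, obese mouse 1 or obese mouse 2 (adjusted p = 0.0680 to 0.119). In the same VAT libraries the summed level of the 6 macrophage genes was 640 to 830 CPM in lean and 1344 to 1786 CPM in obese mice, with 4 of the 6 called higher, and that of the 6 adipocyte genes was 21521 to 34259 and 14958 to 25201 CPM, with 2 called lower. Markers of other cells differed too. The summed level of 4 T cell genes was 18.4 to 44.6 CPM in lean and 58.7 to 94.0 CPM in obese mice (2 called higher), and that of 4 B cell genes 29.3 to 230.4 and 172.3 to 308.7 CPM (2 higher). Of 5 genes of lipid-associated macrophages, Trem2, Cd9 and Gpnmb were called higher and Lpl, which adipocytes also express, was called lower. Their sum, 21985 to 28682 and 15356 to 18612 CPM, is nearly all Lpl, with 5018646 counts over the 16 libraries against at most 30977 for another of the 5. For 5 genes of exocrine pancreas the sum was 41.2 to 60.6 and 81.2 to 89.6 CPM (1 higher). It too was nearly all 1 gene, Cela1, with 17804 counts against at most 97 for another of the 5. For 5 genes of intestinal epithelium the sum was 1.40 to 31.0 and 3.47 to 4.40 CPM (1 lower). No tested gene of the 4 other lists was called. The part of these cells in the values of Wee1 and Ncor1 was not tested.

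**Figure D4:**
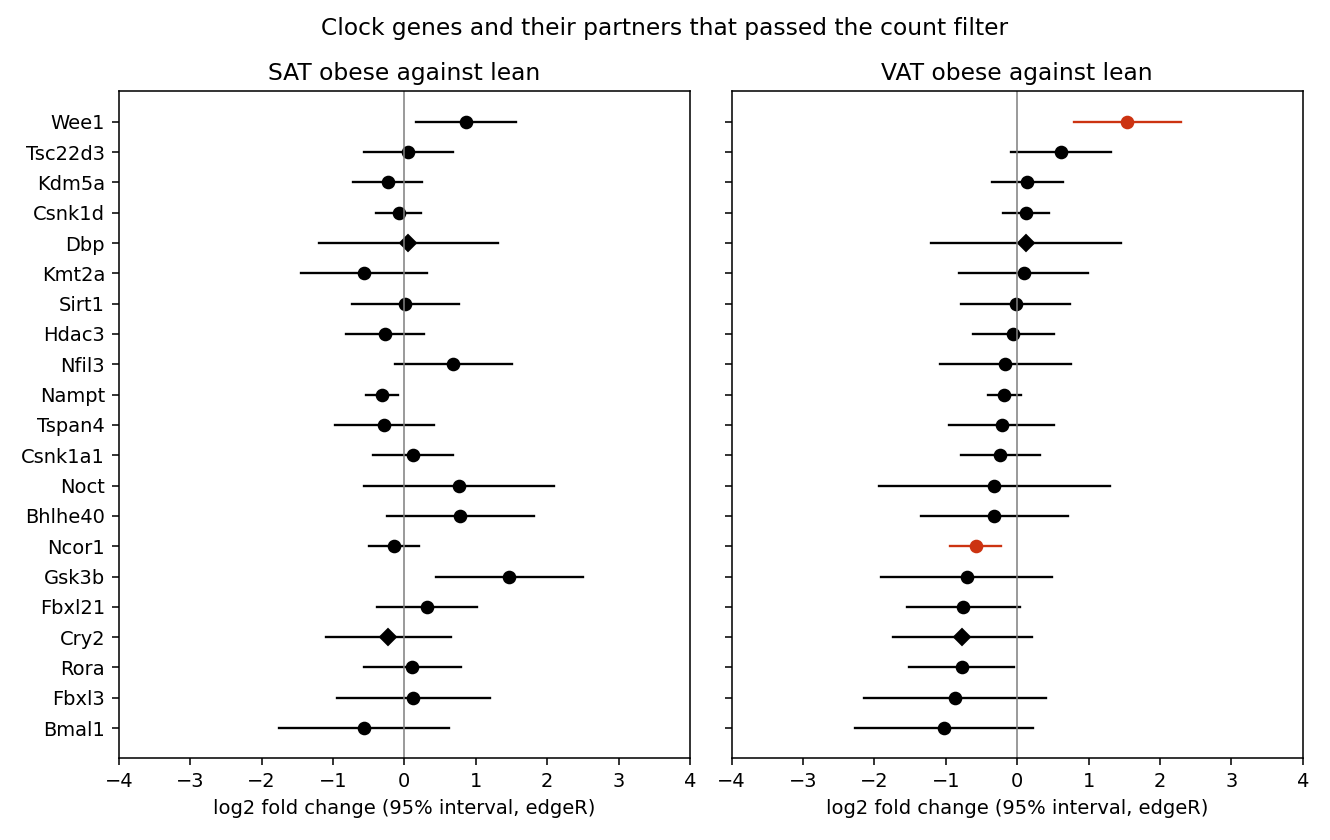
Log2 fold change of obese against lean with its 95% interval (edgeR) in SAT (left) and VAT (right) for the 21 tested clock genes and partners, with diamonds for Dbp and Cry2 and red for an adjusted p below 0.05. Wee1 (1.54) and Ncor1 (-0.58) in VAT are the red ones, and the intervals of Dbp and Cry2 span 0 in both tissues.

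Gsk3b, a kinase that phosphorylates several clock proteins, differed in its diet response between the tissues. In SAT it was 1.66, 0.562, 0.478 and 0.640 CPM in lean and 2.21, 3.82, 1.57 and 2.48 CPM in obese mice, and in VAT 2.66, 0.715, 1.62 and 0.987 CPM in lean and 0.762, 1.05, 0.0933 and 0.996 CPM in obese mice. The VAT response minus the SAT response was -2.80 ± 0.67 (SE, edgeR adjusted p = 0.0294) on the log2 scale, where 1.62% of all genes were called in this direction. The call rests on few counts (1 to 36 per library) and was lost in 6 of the 8 fits that each left out 1 mouse, by limma voom, and without the mouse as a block (adjusted p = 0.174), and DESeq2 gave it no adjusted p. By edgeR neither response was called on its own (1.47 ± 0.50, adjusted p = 0.0573 in SAT and -0.71 ± 0.57, adjusted p = 0.497 in VAT), but that in SAT lay near the limit and was called by DESeq2 (adjusted p = 0.0427), among other alternatives. Between tissues, Csnk1a1 (casein kinase 1 alpha) was the single one of the 19 called in lean mice, higher in VAT by 0.77 ± 0.25 on the log2 scale (SE, adjusted p = 0.0417), as were 8.67% of all genes, and its call was lost in 4 of the 8 fits that left out 1 mouse, by DESeq2, without the filter and without the block. In obese mice Gsk3b (-1.90 ± 0.44, adjusted p = 0.00241) and Bhlhe40 (-0.67 ± 0.18, adjusted p = 0.00625) were called lower in VAT, as were 15.1% of all genes, and the call of Bhlhe40 was lost in 2 of the 8 fits that left out 1 mouse, by limma voom and without the block. In obese mice the 4 mesothelium genes summed to 0.155 to 0.457 CPM in SAT and 285.4 to 345.1 CPM in VAT, and the 6 macrophage genes to 646 to 851 and 1344 to 1786 CPM.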

How the data were processed

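Per the labels and the study's methods, the authors trimmed paired-end reads with Trim Galore (0.6.6 in the submitters' processing notes, another version in the methods), aligned them to GRCm39 with HISAT2 2.2.0 and counted them on RefSeq transcripts with HTSeq 0.13.5. The deposited table holds raw counts and CPM, and the deposited CPM equal counts scaled to the column total.

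Rows were given symbols by RefSeq identifier (81.9% of rows), and counts were summed per symbol. The 12186 genes that exceeded 1 CPM in 3 or more of the 16 libraries were tested with edgeR 4.0.16 (quasi-likelihood, TMM factors, legacy=TRUE, under R 4.3.3), and those with a Benjamini-Hochberg adjusted p below 0.05 were called. Diets were compared over 16 libraries, tissues with the mouse as a block. DESeq2 1.42.0 and limma 3.58.1 were alternatives. The models were tested on simulated data.

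Same-numbered SAT and VAT libraries of a diet were taken as 1 mouse. The study's methods say that each mouse gave both tissues and that pairing entered the model. The match by number was read from the labels. Deviations of such pairs correlated between -0.0015 and 0.175 (median 0.0765), against a median of -0.0373 between mice. Of 8 SAT libraries, 5 correlated best with the VAT library of their own number.

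Members and lists were chosen with earlier results of these data known. Named were all members, Bmal1, Npas2, list genes called in a diet comparison or the comparison of diet responses, and the 10 genes most and 5 least like Dbp. Bhlhe40, Csnk1a1 and Nampt lie outside this rule.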

Additional observations from a re-analysis of the deposited data

Results flagged for a closer look

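In 36 sets of 4 libraries (a gene in a group, with at least 10 counts), 6 had a library apart from the other 3 by Dixon's criterion. Some of these genes were named for their values in these data, so this number is a description. For Dbp the library apart was VAT of lean mouse 3, at 18.0 CPM, with the nearest at 2.74 CPM. For Bhlhe40 it was lean mouse 3 in SAT (226.9 CPM, nearest 73.9) and in VAT (370.2 CPM, nearest 65.3). For Bmal1 it was VAT of obese mouse 1, at 1.14 CPM on 3 counts, with the nearest at 0.560 CPM. For Wee1 it was VAT of lean mouse 2, the lowest at 1.43 CPM, and for Gsk3b SAT of lean mouse 1, the highest at 1.66 CPM. The diet response of Gsk3b differed between VAT and SAT by -2.80 on the log2 scale (edgeR adjusted p = 0.0294, range 0.00574 to 0.239 over the alternatives).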

How the results depend on the processing

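Cry2 was called under no alternative, and Dbp was called between diets or tissues only without lean replicate 3. Without 1 mouse each, Dbp in SAT by diet ran from -0.34 to 0.95 and was negative without lean replicate 1 (-0.29), 2 (-0.10) or 4 (-0.06) or obese replicate 3 (-0.34). In VAT it ran from -0.29 to 1.75 and was negative without lean replicate 1 (-0.03), 2 (-0.24) or 4 (-0.14) or obese replicate 3 (-0.29). Cry2 in VAT against SAT ran from -0.077 (without lean replicate 4) to 0.64 in lean mice and from -1.05 to 0.035 (without obese replicate 3) in obese mice, where it was 0.027 with both mice numbered 3 left out. Bhlhe40 in VAT by diet ran from -0.57 to 0.93, and was positive with limma voom (0.18), with both mice numbered 3 left out (0.78) and with the replicate block (0.082). In these same fits the members called ran from 0 to 1 in VAT by diet, in VAT against SAT of lean mice and between mice, where lean replicate 3 decides it, and were 0 in the other comparisons. With no filter on low counts 1 of 8 members, Cry1, was called in VAT against SAT of lean mice, beside 5.79% of all features. In every comparison the fit without the filter took each gene's spread from the trend over all genes.

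Counts of all genes called ran from 926 to 1468 in SAT (1414 with all mice), 847 to 1626 in VAT (1482), 134 to 386 in the comparison of diet responses (301), 1276 to 1945 in VAT against SAT of lean mice (1937), 2490 to 4075 of obese mice (3821) and 60 to 168 between mice (128), with 1 mouse left out each. With both mice numbered 3 left out, chosen after seeing the data, they were 618, 846, 108 and 1157 in the first 4, and 35 genes and 0 members between mice. The comparison of diet responses gave 453 with DESeq2 and 139 with no replicate block. The test between mice gave 535 without the filter, 200 with legacy=FALSE and 354 with DESeq2. The cause was not tested.

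The replicate block by number, for lean and obese mice that no source ties to each other, gave 1596 calls in SAT and 1603 in VAT. It changed no call of a member, and called Bhlhe40 (1.14) and Gsk3b (1.56) in SAT. Gsk3b in SAT (1.47) was also called without the filter (adjusted p = 0.0187), with legacy=FALSE (0.0340), DESeq2 (0.0427) and the 8 SAT libraries alone (0.0366), and without lean replicate 1 (0.0158) or obese replicate 3 (0.0283), and Wee1 in SAT (0.87) without lean replicate 1 (0.0435). Same-numbered lean and obese libraries correlated between -0.0928 and 0.172 (median 0.0675, against -0.0218 for other numbers and 0.0765 within a mouse), and 3 of 8 lean libraries correlated best with their own number. The ranking by likeness kept 3 to 8 of its 10 highest genes without 1 mouse and 4 when centred on the tissue mean, and could not be run on Nr1d1, which has no counts.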
